A study of Mus musculus with 6 samples.

Results

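The sites described here are weakly accessible binding sites of the transcription factor SP1 that lie at the ends of genes. A site was taken when its midpoint was at most 1000 bp from an end of a RefSeq mm10 protein-coding gene and its mean signal, an average of normalized counts over all libraries, was below 20. The rule found 806 of the 9001 sites in the authors' deposited table, and these lie within reach of 712 genes. Another 675 gene-end sites had a mean signal of 20 or more and are called strong below, and 7520 sites lay elsewhere. Accessibility was measured by ATAC-seq in 3 libraries of neural progenitor cells (NPC) and 3 libraries of R1 embryonic stem cells (ESC). Both cell types are mouse cells labelled R1, an embryonic stem cell line, and no treatment is given for either. Nothing in the labels tells whether libraries of 1 cell type came from separate cultures, so the authors' p-values cover only the spread among the libraries and this may be technical. The table compares NPC with ESC at sites 500 bp wide on chromosomes 1 and 10 and part of chromosome 11, with no value per library, and library depths are therefore unknown.

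SP1 is a zinc-finger protein that binds GC boxes, short GC-rich elements that are common in the promoters of broadly used genes. ATAC-seq reads out open chromatin through the insertions of the Tn5 transposase, and the promoters of active genes are usually open. Embryonic stem cells are pluripotent, while neural progenitors divide and can give rise to neurons and glia. In these bulk libraries, a lower signal from fewer cells with an open site and from less opening per cell cannot be told apart.

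The reference sequences of 9 promoters show what DNA lies under sites of each direction. They were chosen as the promoters, held whole in the 500 bp window, of the 3 largest falls and the 3 largest rises, with 3 further germline genes that fell. Each runs 5′ to 3′ on the strand of its gene, from 250 bases before to 50 bases after the start, as RefSeq gives it for GRCm38.p6, with GC boxes in capitals (GGGCGG, or CCGCCC on the other strand). Spag16 (chr1:69826720-69827019, plus strand), Dnajb3 (chr1:88205699-88205998, minus strand) and Inhbe (chr10:127351799-127352098, minus strand) were the falls. Rsph14 (chr10:75032504-75032803, minus strand), Tnfsf18 (chr1:161494407-161494706, plus strand) and Rdh5 (chr10:128919248-128919547, minus strand) were the rises. Mael (chr1:166238695-166238994, minus strand), Hormad2 (chr11:4441033-4441332, minus strand) and Boll (chr1:55363704-55364003, minus strand) were the other germline genes.
Spag16: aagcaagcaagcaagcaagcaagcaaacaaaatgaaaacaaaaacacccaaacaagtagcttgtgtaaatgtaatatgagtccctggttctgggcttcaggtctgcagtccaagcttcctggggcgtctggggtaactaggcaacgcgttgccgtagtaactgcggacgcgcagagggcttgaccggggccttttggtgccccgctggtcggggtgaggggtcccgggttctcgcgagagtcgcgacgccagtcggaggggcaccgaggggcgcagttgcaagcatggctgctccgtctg
Dnajb3: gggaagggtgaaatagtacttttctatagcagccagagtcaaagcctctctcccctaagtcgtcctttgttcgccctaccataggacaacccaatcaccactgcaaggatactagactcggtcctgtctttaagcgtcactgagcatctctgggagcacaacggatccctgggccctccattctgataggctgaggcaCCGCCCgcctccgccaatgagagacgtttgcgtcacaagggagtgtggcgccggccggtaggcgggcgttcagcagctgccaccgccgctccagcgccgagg
Inhbe: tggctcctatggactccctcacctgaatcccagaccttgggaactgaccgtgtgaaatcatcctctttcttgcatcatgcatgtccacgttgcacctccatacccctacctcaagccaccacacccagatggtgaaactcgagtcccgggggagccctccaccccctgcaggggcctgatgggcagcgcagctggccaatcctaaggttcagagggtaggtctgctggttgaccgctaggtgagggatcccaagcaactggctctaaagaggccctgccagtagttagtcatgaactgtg
Rsph14: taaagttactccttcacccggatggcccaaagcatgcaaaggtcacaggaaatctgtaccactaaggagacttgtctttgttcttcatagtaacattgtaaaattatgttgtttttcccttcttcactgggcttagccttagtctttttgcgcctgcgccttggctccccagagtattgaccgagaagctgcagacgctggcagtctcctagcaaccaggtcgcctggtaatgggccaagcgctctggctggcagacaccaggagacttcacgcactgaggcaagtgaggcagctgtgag
Tnfsf18: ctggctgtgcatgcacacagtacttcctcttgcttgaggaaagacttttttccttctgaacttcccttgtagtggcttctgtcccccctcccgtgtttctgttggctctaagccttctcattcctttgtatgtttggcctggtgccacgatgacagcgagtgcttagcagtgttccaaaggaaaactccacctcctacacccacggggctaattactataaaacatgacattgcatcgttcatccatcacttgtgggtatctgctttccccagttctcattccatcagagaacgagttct
Rdh5: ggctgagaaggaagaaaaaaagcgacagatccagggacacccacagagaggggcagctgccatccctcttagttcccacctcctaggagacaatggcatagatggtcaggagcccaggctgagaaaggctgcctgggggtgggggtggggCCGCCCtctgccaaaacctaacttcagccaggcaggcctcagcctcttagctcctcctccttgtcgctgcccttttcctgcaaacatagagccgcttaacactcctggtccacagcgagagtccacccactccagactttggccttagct
Mael: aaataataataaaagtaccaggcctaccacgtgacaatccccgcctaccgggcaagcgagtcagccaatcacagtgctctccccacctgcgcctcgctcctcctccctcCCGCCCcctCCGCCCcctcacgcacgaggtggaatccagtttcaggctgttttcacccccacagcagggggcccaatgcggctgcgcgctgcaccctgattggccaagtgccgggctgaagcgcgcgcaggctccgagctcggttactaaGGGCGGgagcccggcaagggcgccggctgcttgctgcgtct
Hormad2: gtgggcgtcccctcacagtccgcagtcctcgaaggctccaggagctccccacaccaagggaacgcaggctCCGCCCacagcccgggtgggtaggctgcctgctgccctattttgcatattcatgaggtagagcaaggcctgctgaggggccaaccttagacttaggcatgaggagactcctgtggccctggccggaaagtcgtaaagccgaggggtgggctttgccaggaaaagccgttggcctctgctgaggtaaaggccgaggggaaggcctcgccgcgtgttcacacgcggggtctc
Boll: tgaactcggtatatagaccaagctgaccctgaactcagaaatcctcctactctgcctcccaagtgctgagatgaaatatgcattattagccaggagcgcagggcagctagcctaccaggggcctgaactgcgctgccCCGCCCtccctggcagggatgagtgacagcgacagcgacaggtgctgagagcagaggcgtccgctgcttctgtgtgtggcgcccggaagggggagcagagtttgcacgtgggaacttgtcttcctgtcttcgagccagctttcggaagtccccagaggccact

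The GC box was absent from the Spag16, Inhbe, Rsph14 and Tnfsf18 promoters, occurred 1 time each in those of Dnajb3, Rdh5, Hormad2 and Boll, and occurred 3 times in that of Mael. Among all 2356 protein-coding promoters of the listed regions in the RefSeq table, 48.0% held GGGCGG on either strand. The CpG ratio, observed over expected CG dinucleotides, was 0.80 in the Spag16 promoter and 0.246 in the Inhbe promoter, so the promoters that fell were not alike in CpG content. In the 3 promoters of the largest rises the ratio was 0.410 for Rsph14, 0.361 for Tnfsf18 and 0.197 for Rdh5.

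Weak gene-end sites moved in both directions between the cell types, and the falls were more numerous and larger. By the authors' deposited table, 131 sites rose in NPC (16.3%) and 192 fell (23.8%) at an adjusted p below 0.05, and 483 were not called. Over all 9001 listed sites, 22.8% rose and 32.6% fell. The median log2 fold change, NPC over ESC, was -0.02 for the 806 sites, with a 95% interval of the median over sites of -0.13 to 0.04, against -0.29 for all listed sites. That interval treats the sites as independent and does not cover the spread among the libraries. Called rises had a median log2 fold change of 1.61 and called falls of -2.63. Mean signal comes from the same comparison as the fold change and chose these sites, so the counts and medians describe them and no test was made. Of the 806 sites, 121 overlapped another of the 806, so not all sites counted are independent.

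Sites called with a change of at least 4-fold, a log2 size of 2, are termed restricted to a cell type below. By that measure 50 sites (6.20%) were restricted to NPC and 133 (16.5%) to ESC, where 16.6% and 28.4% of all listed sites were. Among strong gene-end sites, 226 of 675 rose (33.5%) and 46 fell (6.81%), with 14 restricted to NPC and 10 to ESC. Weak sites away from gene ends rose at 21.4% and fell at 36.2% of 7107 sites. Precision differed with signal, since the median standard error of the log2 fold change was 0.517 at weak gene-end sites and 0.280 at strong ones.

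**Figure D1:**
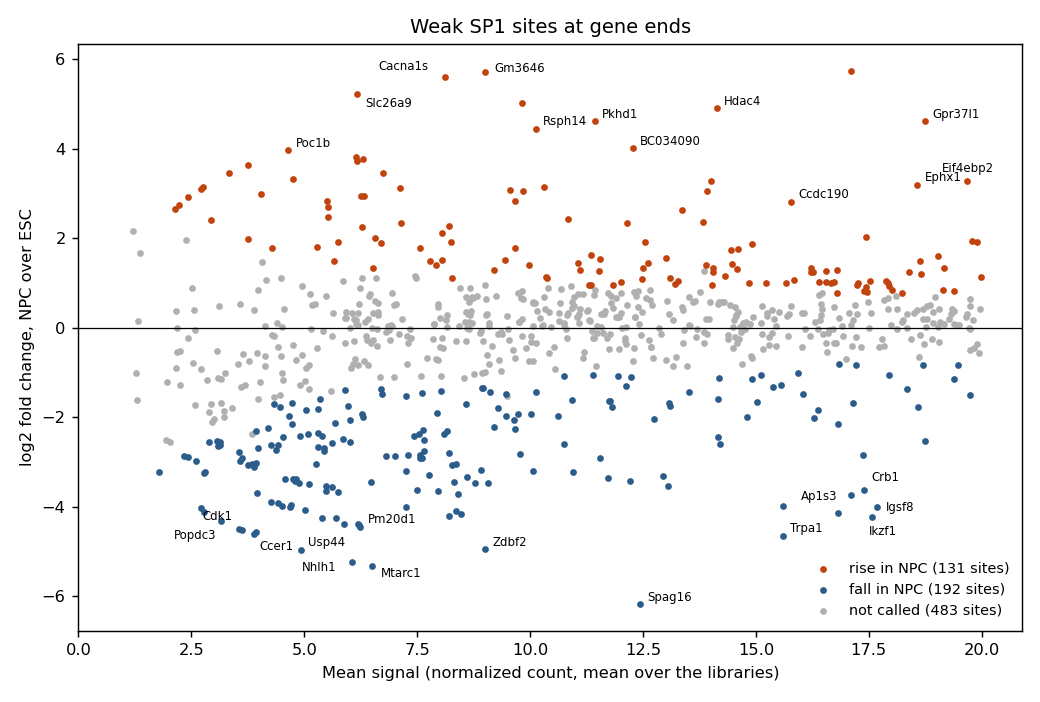
Each point is 1 of the 806 weak gene-end sites, with mean signal (normalized count averaged over the libraries) on the x axis and the authors' log2 fold change, NPC over ESC, on the y axis. The 131 rises and 192 falls at an adjusted p below 0.05 are coloured, many genes with the largest or most significant changes are named, and falls gather at low signal.

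The balance of directions varied with mean signal among the 806 sites. Below a mean signal of 5, 13 of 133 sites rose (9.77%) and 50 fell (37.6%), and the median log2 fold change was -1.33. Between 5 and 10, 37 of 268 sites rose and 83 fell, with a median of -0.21. From 10 up to 20, 81 of 405 sites rose (20%) and 59 fell (14.6%), with a median of 0.19, so the weakest sites were mostly lower in NPC and those near the limit were not. Across the 806 sites Spearman's rho between mean signal and log2 fold change was 0.28, as a description of values that share the same libraries. At the limit itself, the 3 sites just below it in the authors' deposited table were those of Slco5a1 (mean signal 19.98, log2 fold change 1.14), Map3k5 (19.97, 0.42) and Ascc1 (19.93, -0.56). Just above it were those of Hes6 (20.01, 1.53), Slc19a1 (20.05, -0.23) and Ewsr1 (20.11, 1.08), also per the authors' deposited table. For distance, the farthest sites inside the limit were those of Esyt1 at 996 bp, Gpr37l1 at 990 bp and Kif1a at 988 bp, with log2 fold changes in the authors' deposited table of -1.92, 4.62 and -0.92. The nearest outside were those of Gm38664 and Cabin1 at 1002 bp and Stau2 at 1005 bp, and the authors' deposited table gives them log2 fold changes of 1.02, 0.03 and 0.41.

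The largest rises described here lay at genes of varied roles. Cacna1s, the pore-forming subunit of the skeletal muscle calcium channel, had 3 sites at its far end, the end away from the start, and the authors' deposited table gives them log2 fold changes of 5.60 ± 1.17, 5.02 ± 1.15 and 1.50 ± 0.77 (± standard error). All 3 rose, and they lie within 777 bp of the same gene end. The windows of the sites at 5.60 and 5.02 overlap, so these are not separate rises. Slc26a9, an epithelial anion transporter, rose by 5.22 ± 1.18 at its far end, per the authors' deposited table. Hdac4, a class IIa histone deacetylase, rose by 4.91 ± 1.00 at its start in the same authors' deposited table. Gpr37l1, a receptor of astrocytes and other glia, rose by 4.62 ± 0.76 at its far end, and its adjusted p in the authors' deposited table, 2.50e-08, was among the smallest. Pkhd1, the gene mutated in recessive polycystic kidney disease, rose by 4.61 ± 1.01 at its far end according to the authors' deposited table. Rsph14, named for the radial spoke head of cilia, rose by 4.44 ± 1.02 at its start in the authors' deposited table. Gm3646, BC034090 and Poc1b, the last of which encodes a centriole protein, were also among the largest rises, at 5.72, 4.01 and 3.97 in the authors' deposited table. Counting the largest site of each gene, 6 of these 9 genes rose at the far end and 3 at the start.

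The smallest adjusted p among the rises, 7.19e-09 in the authors' deposited table, belonged to Eif4ebp2, which encodes a repressor of cap-dependent translation. Its site 27 bp from the far end of the gene rose by 3.27 ± 0.51. The strong site at the Eif4ebp2 start was at 0.22 ± 0.26 in the authors' deposited table and was not called. Ephx1, a microsomal epoxide hydrolase, and Ccdc190 rose at their starts by 3.20 ± 0.52 and 2.82 ± 0.52 in the authors' deposited table.

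Among the falls the largest lay at the start of Spag16, which encodes a protein of the axonemal central apparatus of sperm flagella and motile cilia and whose promoter is printed above. Here (chr1:69826640-69827140) the authors' deposited table gives a mean signal of 12.4 and a log2 fold change of -6.18 ± 1.15, with an adjusted p of 2.52e-07. If NPC and ESC libraries weigh equally in the mean, these values of the authors' deposited table imply normalized counts of about 0.339 in NPC and 24.5 in ESC. Among the other large falls were a mitochondrial reductase (Mtarc1, -5.32 ± 1.18) and a neuronal bHLH factor (Nhlh1, -5.23 ± 1.19), both at the far end of the gene in the authors' deposited table. Usp44, a deubiquitinase of the germline list, was at -4.96 ± 1.21 and Zdbf2, an imprinted gene, at -4.95 ± 1.16 in the authors' deposited table. Trpa1, an irritant-sensing ion channel of sensory neurons, was at -4.65 ± 0.86 in the authors' deposited table. Ccer1, Popdc3, Cdk1 and Pm20d1 completed the 10 largest falls, at -4.60, -4.52, -4.49 and -4.45 in the authors' deposited table. Popdc3 encodes a cAMP-binding membrane protein of muscle, and Cdk1 is the kinase that drives entry into mitosis. The Cdk1 site lies 888 bp from the end of the gene away from its start, so it is not the Cdk1 promoter.

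The 4 falls of smallest adjusted p lay at Igsf8, Crb1, Ikzf1 and Ap1s3. Igsf8, an immunoglobulin-domain membrane protein, had a log2 fold change of -4.01 ± 0.65 at 777 bp from its start, and its adjusted p was 1.52e-08 in the authors' deposited table. A strong Igsf8 site 77 bp from the start was at -0.10 ± 0.29 in the authors' deposited table and was not called. Crb1, an apical polarity protein of photoreceptors and Müller glia, was at -3.62 ± 0.59 in the authors' deposited table. Ikzf1, the lymphoid transcription factor Ikaros, was at -4.23 ± 0.69, and Ap1s3, a subunit of the AP-1 adaptor of vesicle coats, at -3.73 ± 0.62 in the authors' deposited table. All 3 lie within 190 bp of the start of the gene.

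**Figure D2:**
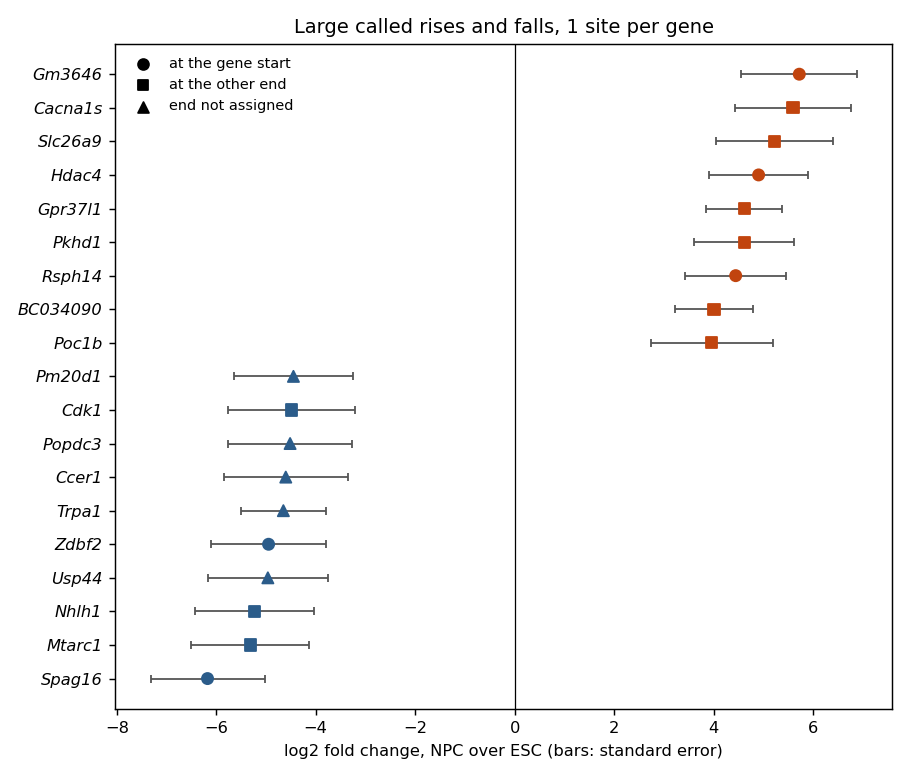
Points give the authors' log2 fold change, NPC over ESC, at 9 of the weak gene-end sites with the largest rises and the 10 with the largest falls, 1 site per gene, with bars for the standard error. Marker shape gives the end of the gene, and 6 of the 9 rises lie at the end away from the start.

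The genes were then grouped into 13 lists by textbook role, and the called sites of each list were counted beside all weak gene-end sites, of which 16.3% rose and 23.8% fell. Genes of the pluripotent state and of the germline had no called rise. The pluripotency list had 6 sites at 3 genes, of which 4 fell and 2 were not called, with a median log2 fold change of -1.77. Lin28b, an RNA-binding protein that blocks let-7 maturation, fell at both of its start sites (-2.32 ± 0.68 and -1.96 ± 0.59 in the authors' deposited table). The strong Lin28b start site fell as well, to -2.91 ± 0.47 in the authors' deposited table. Tfcp2l1, a transcription factor of naive pluripotency, was at -1.77 ± 0.41 in the authors' deposited table. Tet1, a 5-methylcytosine dioxygenase, fell at its far end (-1.76 ± 0.91) and was not called at its start sites (-0.65 and 0.04) in the authors' deposited table.

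The germline list had 10 sites at 9 genes, of which 8 fell and 2 were not called, with a median of -3.22. After Spag16 and Usp44 came Mael, needed for transposon silencing in male germ cells, at -4.12 ± 1.34 in the authors' deposited table. Spata3 was at -4.08 ± 1.22, and Sycp3, a protein of the meiotic chromosome axis, at -4.00 ± 1.23 in the authors' deposited table. Hormad2, another meiotic axis protein, fell to -2.43 ± 0.70, and Boll, an RNA-binding protein of spermatogenesis, to -2.04 ± 0.54 and -1.05 ± 0.46 in the authors' deposited table. The Boll windows overlap, so these are not separate falls. Tsga10 and Tdrd5 were not called, at -0.80 and -0.72 in the authors' deposited table. Of the 10 sites, 9 lay at the start of the gene. The 5 strong gene-end sites of the germline list had a median of 0.44, with 2 rises and no fall.

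Genes of neural identity moved both ways. Of 12 sites at 10 neural regulators, 3 rose, 3 fell and 6 were not called, with a median of -0.30. The rises included Sox13, an SRY-box factor, at 1.29 ± 0.60 and Rfx4, a regulatory factor X gene of the developing brain, at 1.24 ± 0.44 in the authors' deposited table. Beside Nhlh1, the falls were Gbx2, a homeobox gene of the anterior hindbrain, at -3.48 ± 0.81 and Nr2e1, the neural stem cell receptor Tlx, at -1.74 ± 0.75 in the authors' deposited table. The fall at Gbx2 was at the far end of the gene and that at Nr2e1 at its start, while the far-end site of Nr2e1 was not called (-0.81) in the authors' deposited table. The 7 strong gene-end sites of the neural regulator list had 5 rises and 1 fall, with a median of 1.09. Of all strong gene-end sites, 33.5% rose and 6.81% fell. At neuronal genes 3 of 33 sites rose, 7 fell and 23 were not called, with a median of -0.08. Adcy1, a neuronal adenylyl cyclase, and Grik2, a kainate receptor subunit, both rose by 1.91, and Rims1, a scaffold of the presynaptic active zone, by 1.02, per the authors' deposited table. A further Adcy1 site, 86 bp from the start against 331 bp for the rise, was not called, at 0.59 in the authors' deposited table. Brinp3 and Ptprn, a protein of dense-core vesicles, fell with Igsf8, to -3.49 and -2.75 in the authors' deposited table. The neurofilament heavy chain gene Nefh was at -1.13 and the axonal adhesion gene Cntn2 at -1.07 in the authors' deposited table, both called. The Nefh site, 954 bp from an end of the gene, also lies at an end of another gene. Of 5 glial sites 2 rose, 1 fell and 2 were not called, and the rises included Gpr37l1. Kcnj10, the main inward-rectifier potassium channel of astrocytes, fell to -3.54 ± 0.67 at its start in the authors' deposited table.

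Genes of other tissues also held restricted sites in both directions. Over all 10 tissue and cell type lists, those of pluripotent, germline, neural, neuronal and glial genes above included, 22 of 136 sites rose (16.2%) and 49 fell (36.0%), with a median of -0.65, and 14 sites were restricted to NPC and 33 to ESC. The 650 sites at genes in no list had 107 rises and 141 falls, with a median of 0.02. In the list of epithelium, liver, gut and kidney, 3 of 14 sites rose and 8 fell. Its rises included Pkhd1 and the intestinal lactase gene Lct (3.31), both at the far end of the gene, in the authors' deposited table. Its falls included Inhbe, an inhibin beta subunit of liver (-4.38), and the bile acid receptors Nr1h4 (-3.42, far end) and Gpbar1 (-3.23) in the authors' deposited table. Blood and immune genes had 3 rises and 5 falls at 9 sites. Tnfsf18, the ligand of the receptor GITR (3.77), the perforin gene Prf1 (3.14, far end) and the signal adaptor Traf5 (1.00) rose in the authors' deposited table. The falls included Ikzf1, Themis of T cell development (-2.42) and Icosl (-1.60) in the authors' deposited table.

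Muscle genes had 4 rises and 4 falls at 18 sites. Of the rises 3 were the Cacna1s sites, some in overlapping windows, and the other was Txlnb (1.78) in the authors' deposited table. Popdc3, Csrp2 (-1.67), Csrp1 (-1.35) and the integrin gene Itga7 (-1.15) fell in the authors' deposited table. Another 2 Popdc3 sites, 85 and 297 bp from an end of the gene, were not called, at -0.34 and -0.27 in the authors' deposited table. Matrix and mesenchyme genes had 3 rises and 6 falls at 21 sites. The metalloproteinase inhibitor gene Timp3 (3.72), Igfbp5, which binds insulin-like growth factors (2.62), and the proteoglycan gene Lum (2.41) rose in the authors' deposited table. The Timp3 and Igfbp5 rises lay at the far end of the gene, and the Timp3 start site was not called, at 0.73 in the authors' deposited table. The laminin genes Lama2 (-3.38) and Lamc1 (-2.37), the collagen gene Col5a2 at its sites of -2.55 and -1.71, the homeobox gene Prrx1 (-2.24) and Mmp11 (-1.65) fell in the authors' deposited table. Among 8 eye and ear sites, that of Rdh5, a retinol dehydrogenase of the visual cycle, rose (3.05, at a window shared with Bloc1s1) in the authors' deposited table. Crb1, the crystallin gene Crygf (-3.22) and Pcdh15 of the hair cell tip link (-3.04) fell in the authors' deposited table.

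Lists of broadly used genes held few called sites. Among 13 sites of cell cycle and replication genes, Prim2, a primase subunit, rose (1.16) and Cdk1 and Fignl1 (-2.02) fell in the authors' deposited table, and 10 were not called. A Prim2 site nearer the gene end, at 27 bp against 656 bp, was among those not called, at 0.18 in the authors' deposited table. The fall at Fignl1 stood beside a strong start site of the same gene that rose by 0.78 ± 0.25 in the authors' deposited table. A further strong Fignl1 start site, 371 bp from the start, was not called, at -0.10 ± 0.27 in the authors' deposited table. Among 5 translation sites that of Eif4ebp2 rose and the other 4 were not called, and none of 5 oxidative phosphorylation sites was called, with medians of 0.10 and 0.42. The 3 lists together had 2 rises and 2 falls at 22 sites, with a median of 0.16.

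**Figure D3:**
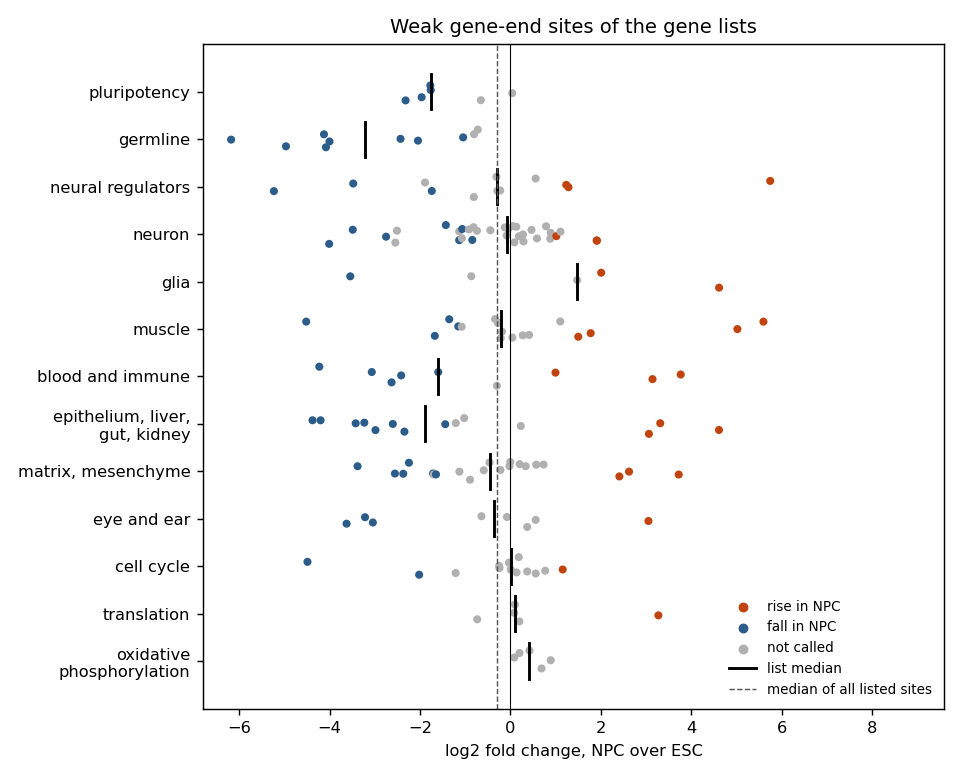
Points are weak gene-end sites of each gene list, placed by the authors' log2 fold change, NPC over ESC, and coloured by call, with a bar at the list median and a dashed line at the median of all 9001 listed sites (-0.29). The pluripotency, germline and oxidative phosphorylation lists hold no called rise. The glia list has the highest median, 1.48, which is the value of a site without a call among only 5 sites.

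The end of the gene was known for 660 sites, from the strand of the gene in the RefSeq promoter table. At gene starts 84 of 545 sites rose (15.4%) and 109 fell (20%), with a median log2 fold change of 0.04. At the far end of the gene 25 of 115 sites rose (21.7%) and 40 fell (34.8%), with a median of -0.64. Called rises were larger there, with a median of 3.29 at far ends and 1.34 at starts. Of the sites restricted to NPC whose end was known, 22 of 41 lay at far ends (53.7%), and of those restricted to ESC 33 of 105 did (31.4%). Far-end sites were also weaker, with 94 of 115 under a mean signal of 10, and within each range of signal they held a larger share of both rises and falls than starts did. Only 2 far-end sites overlapped a promoter of another gene in that table, A630095N17Rik with Tuba4a (-2.54) and Ecel1 with Gm51638 (3.46) in the authors' deposited table.

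**Figure D4:**
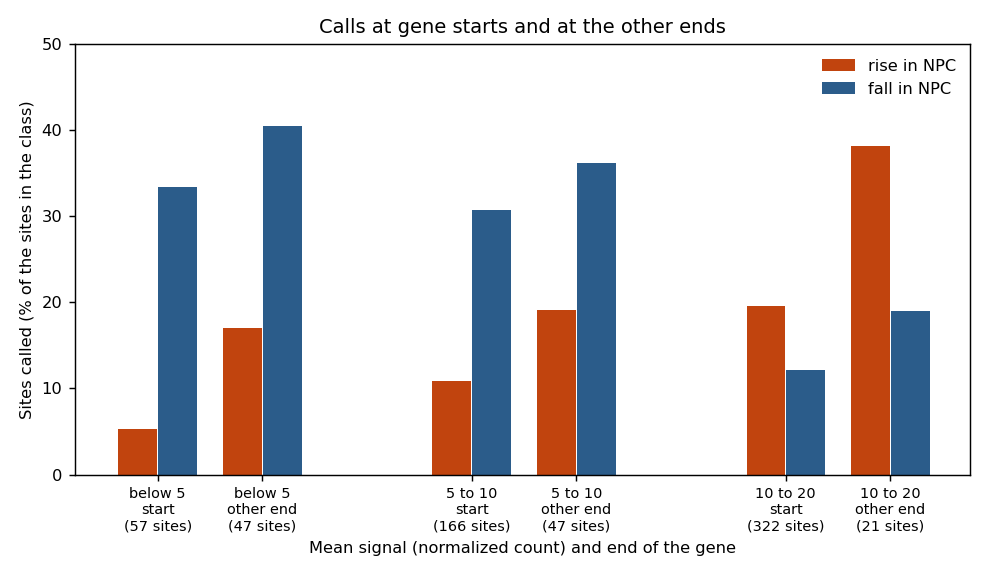
Bars give the percentage of weak gene-end sites called as rises or falls in NPC, by range of mean signal (normalized count) and by end of the gene, with the number of sites in each class under the axis. From 10 to 20, 38.1% of 21 far-end sites rose against 19.6% of 322 start sites, and below 5 the falls were 40.4% of 47 far-end sites and 33.3% of 57 start sites.

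The start was then set beside the far end for genes with a restricted site at the far end and any listed site at the start. Sites without a call were 64.6% of all weak start sites and 60.6% of all strong ones, and the far-end values are large by the choice of restricted sites. Of 14 such genes whose far end was restricted to ESC, the strongest start site fell in 1, rose in 4 and was not called in 9, with medians of -3.19 at far ends and 0.22 at starts. The gene with a fall at both was Chchd10, whose start site is shared with Mmp11 and whose far-end site also lies at an end of another gene. Thap4 was at -2.91 ± 1.22 at its far end and 1.56 ± 0.36 at its start in the authors' deposited table. Nfyb, a subunit of the CCAAT-binding factor NF-Y, was at -3.69 ± 1.27 and 0.79 ± 0.25, far end and start, in the authors' deposited table. Nck2, an SH2 and SH3 adaptor, and Kcnmb4, a beta subunit of the BK potassium channel in brain, likewise fell at the far end (-3.54 and -3.37) and rose at the start (0.96 and 0.95) in the authors' deposited table. A further Nck2 start site (0.41) and a further Kcnmb4 far-end site (-0.57) were not called in the authors' deposited table. At Hdac2, a class I histone deacetylase, the far end fell (-2.64) and the start was not called (0.49) in the authors' deposited table. Of 7 genes whose far end was restricted to NPC, the start rose in 2, fell in 1 and was not called in 4. The 2 were Cnksr3, a scaffold protein (far end 3.29, start 1.19), and Camsap2, which binds microtubule minus ends (3.47 and 1.18), in the authors' deposited table. C2cd4c rose at the far end (2.74) and fell at the start (-1.91) in the authors' deposited table.

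**Figure D5:**
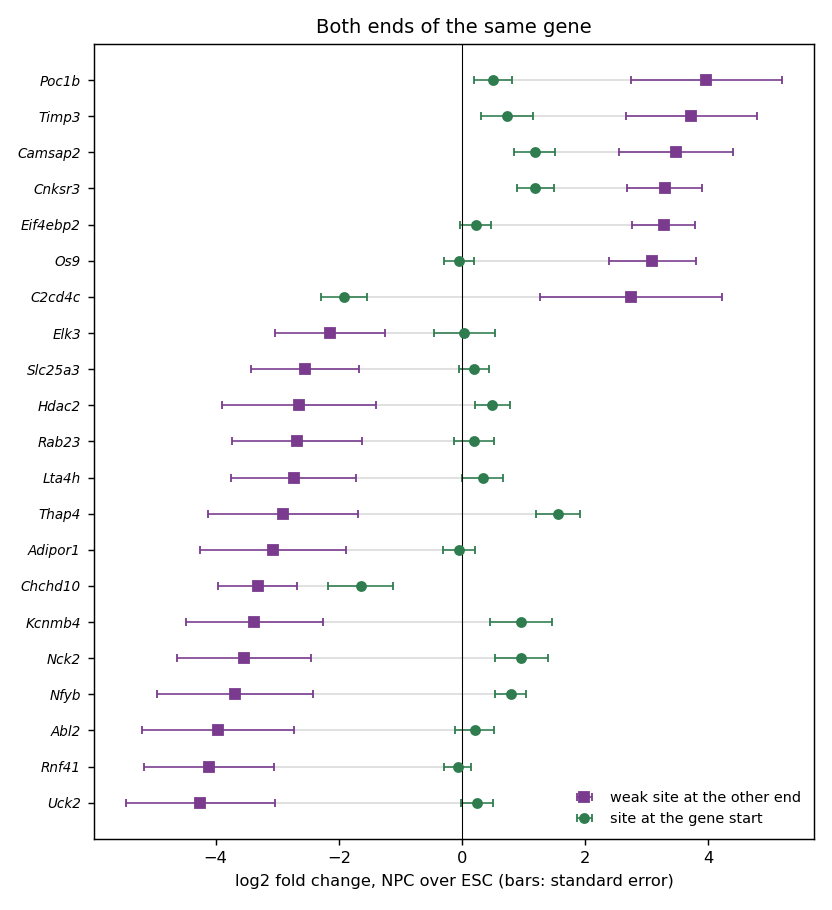
For 21 genes the plot sets the log2 fold change, NPC over ESC, of the restricted weak site at the far end (squares) beside that of the strongest site at the start (circles), with bars for the authors' standard error. Starts sit between -1.91 and 1.56, and the ends have opposite signs in 11 of the 14 genes whose far end fell and 2 of the 7 whose far end rose. Among all start sites, 431 of 569 strong ones and 293 of 545 weak ones lay above 0.

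Most genes had a single weak gene-end site (571 of 712), and 4 genes had called sites in both directions. These were Nck2 and Kcnmb4, above, and Clk1 and Slc9a2. Clk1, a kinase that phosphorylates splicing factors, was at 0.94 ± 0.42 at 21 bp and -3.33 ± 0.81 at 627 bp from the same end in the authors' deposited table. Slc9a2, a sodium-proton exchanger of epithelia, rose at its lower-coordinate end (2.13 ± 0.66) and fell at its upper-coordinate end (-2.76 ± 0.89) in the authors' deposited table.

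Other SP1 sites of the same genes, inside the gene or within 50000 bp of it and not at a gene end, were then counted. These values come from the same libraries and comparison. Each weak gene-end site was tied to its nearest gene, and a gene whose sites had different calls was counted under each of them, so the groups below overlap. Genes close together can also share other sites. Around the 182 genes with a falling weak gene-end site, 333 of 839 such sites fell (39.7%) and 156 rose (18.6%), with a median log2 fold change of -0.92. Around the 121 genes with a rising one, 226 of 727 fell (31.1%) and 176 rose (24.2%), with a median of -0.24. Around the 417 genes with a weak gene-end site that was not called, 35.0% of 1926 fell and 22.7% rose, with a median of -0.42. At some genes most other sites moved the same way. All 6 other sites of Trip12, a ubiquitin ligase gene, fell, as did 6 of 9 at Zdbf2, and 4 of 5 at Slc26a9 rose. At others they did not, and 6 of 7 other sites of Nck2 rose although its far-end site fell. The lowest value around Trip12, -5.51, was also the lowest around a neighbouring gene whose weak gene-end site rose. There 6 of 7 other sites fell, so the falls around Trip12 are not particular to that gene.

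Promoter sequence was compared over the 201 promoters of 192 genes that lay whole inside a weak gene-end window. Their median CpG ratio was 0.718 and 59.2% held GGGCGG on either strand, against 0.826 and 75.9% for 381 promoters in strong windows and 0.607 and 48.0% for all 2356 promoters of the regions. Among the 38 promoters in windows that fell, the median CpG ratio was 0.498 and 55.3% held the motif. In the 29 that rose it was 0.926 with the motif in 65.5%, and in the 134 not called 0.747 with 59.0%. The restricted windows were the poorest in CpG in both directions, with medians of 0.361 for the 7 restricted to NPC and 0.403 for the 23 restricted to ESC. Over 186 promoters Spearman's rho was 0.39 between CpG ratio and log2 fold change and 0.41 between CpG ratio and mean signal, as descriptions of windows that share libraries and base composition. The part of CpG content in the changes was not tested.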

How the data were processed

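The single table is the authors' own comparison of 3 NPC and 3 ESC libraries. Per the file headers it gives a mean signal (normalized count averaged over the libraries), a log2 fold change with its standard error, a p-value and an adjusted p-value for each site, all deposited by the authors. No column states the direction, and NPC over ESC follows the deposited table's name. The submitters' processing notes name build mm10, BWA 2.1, Picard 2.23.8, MACS2 2.2.7, SAMtools 1.9 and DESeq2, with no role, settings or DESeq2 version. The choice of SP1 sites and any shift of reads for Tn5 are not stated in these sources, and either could change counts per site. Whether the fold changes were shrunk towards 0 is likewise not stated, and shrinkage would understate changes at weak sites. The authors' adjusted p-values do not all follow from the given fold change over its standard error. At Lum (2.41 ± 1.31) and the far end of Tet1 (-1.76 ± 0.91) they were 0.045 and 0.040. Each is smaller than the p-value that this ratio gives before adjustment. The reason was not tested, and the restricted sites and the implied Spag16 counts use the fold changes as given. Coordinates are printed as given; the counting base is not stated.

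Gene ends came from RefSeq GRCm38.p6 and strands from its promoter table, which held 591 of the 712 genes. A call used the authors' adjusted p below 0.05. Sites named in the text were the 10 largest changes and the 4 smallest adjusted p-values per direction, list members, sites nearest the limits and genes called in both directions. Genes named for their far ends beside their starts and genes used as examples of neighbouring sites were named after their values were seen. The members, lists and rules were chosen with earlier results of these data known. Counts, medians and rank correlations were computed in Python 3.11.15 with pandas 2.3.3, NumPy 2.4.6 and SciPy 1.17.1, and the counting steps were tested on simulated data. The motif GGGCGG was searched on both strands. Some sites that meet these rules enter the counts and plots but are not reported by name here.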

Additional observations from a re-analysis of the deposited data

How the results depend on the processing

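No paired analysis was possible because the table holds no value per library, and for the same reason no library could be left out in turn. The counts moved most with the limits that define the sites. With mean signal below 10, 401 sites were left, with 50 rises (12.5%), a median log2 fold change of -0.62 and 47 called sites in the gene lists. The share of falls was higher there, at 33.2% (133 sites) against 23.8% of the 806. With mean signal below 30 there were 198 rises at 1055 sites (18.8%) and the median was 0.070. Within 500 bp of a gene end there were 127 falls, 48 called list sites and 120 restricted sites. At an adjusted p below 0.01 there were 75 rises. With a restricted site defined by a log2 size of 1 or 3, 299 or 101 sites qualified, against 183. The other 22 alternative values stayed within 1.5 times the count, or within the interval of the median over sites. Counts, not shares, were compared in this way. P-values recomputed from fold change over standard error gave 93 rises and 158 falls, and 1 site per overlapping group gave 120 and 183. Library depths are unknown, and precision was lowest at low signal, with a median standard error of 1.07 on the log2 scale below a mean signal of 5.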

Other observations

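Further gene groups, put together after their values were seen, are given here as values only. G protein-coupled receptor genes, with olfactory receptors left out, had 25 weak gene-end sites at 21 genes. There were 2 rises, 9 falls and 14 sites without a call, with a median log2 fold change of -1.01. The falls were 36% of these sites, against 23.8% of all weak gene-end sites and 32.6% of all listed sites, and the rises 8%, against 16.3% and 22.8%. The falls in the authors' deposited table included Npbwr1, a neuropeptide B and W receptor (-4.03 ± 1.35), the vasopressin receptors Avpr1b (-3.90 ± 1.24) and Avpr1a (-3.30 ± 0.82), the serotonin receptor Htr5b (-3.42 ± 0.68), the zinc-sensing receptor Gpr39 (-3.21 ± 0.71) and the neuromedin B receptor Nmbr (-2.66 ± 0.89). The chemokine-scavenging receptor Ackr3 fell to -1.66 ± 0.46 in the authors' deposited table. Besides Gpr37l1, the trace amine-associated receptor gene Taar2 rose (1.80 ± 0.82) in the authors' deposited table. The Wnt receptor Fzd7 and the stem cell receptors Lgr5 and Lgr6 were not called, and the authors' deposited table has them at -0.14 for Fzd7, 0.23 for Lgr5, and -0.45 and 0.17 for the sites of Lgr6.

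Of 5 sites at genes of the ciliary and flagellar axoneme, 3 fell, 1 rose and 1 was not called, too few to set against the 23.8% of weak gene-end sites and 32.6% of all listed sites that fell. Spag16, the radial spoke gene Rsph4a (-4.14 ± 0.69) and the dynein heavy chain gene Dnah7c (-2.57 ± 0.86) fell in the authors' deposited table, whereas Rsph14 rose, and Cfap65 (-0.55 ± 1.05) was not called. The strong Rsph4a site was at -0.33 ± 0.32 in the authors' deposited table and was not called. Among 3 imprinted genes, Zdbf2 fell, Grb10, which encodes an adaptor that inhibits insulin signalling, fell at 1 site (-3.39 ± 1.13) and was not called at another (-0.69 ± 0.64), and Plagl1 was not called (-0.09 ± 0.43) in the authors' deposited table.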
